A study of Mus musculus with 6 samples.

Results

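The RAS, RAP and RAL GTPases and their regulators were followed at the mRNA level in NCU10K cells after Nedd4 knockdown. The set was a list of 46 genes, of which 44 had a probeset that carries their gene symbol alone, among 19933 genes measured in this way. Hras and Rapgef4 were not analysed here. The 44 genes were 11 GTPases, 15 guanine nucleotide exchange factors (activators), 13 GTPase-activating proteins (inactivators) and 5 effectors of RAP, and each was read from its probeset with the highest mean signal. The NCU10K line was derived from mouse neural crest and immortalized, and was grown in DMEM with 10% foetal calf serum. Cells were transfected with RNAimax and either a low GC control siRNA (3 arrays) or a Nedd4 siRNA of a single sequence (3 arrays), and RNA was collected after 48 h from 3 separate experiments per siRNA, 1 Affymetrix mouse gene array each. No second Nedd4 siRNA and no rescue was part of the arrays, so that the loss of Nedd4 and any other effect of that siRNA cannot be told apart.

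RAS, RAP and RAL proteins are small GTPases that are active when bound to GTP and inactive when bound to GDP. Exchange factors load them with GTP and GTPase-activating proteins make them hydrolyse it, so that the pair of regulator classes sets how long a signal lasts. RAS carries growth factor signals to the MAP kinase and PI3 kinase pathways, RAP controls integrin and cadherin adhesion, and RAL controls the exocyst and membrane traffic, all of which neural crest cells use as they migrate and differentiate. Neurofibromin, the product of Nf1, restrains RAS in the neural crest and Schwann cell lineage, and its loss causes neurofibromatosis.

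Nedd4, the targeted ubiquitin ligase, read 12.24, 12.35 and 12.34 on the log2 scale on the control arrays and 10.45, 10.94 and 10.68 on the Nedd4 siRNA arrays. The groups did not overlap, and the log2 fold change was −1.62 (SE 0.12, adjusted p = 3.16e-06 from limma; p = 0.1 by an exact two-sided permutation of the arrays, the lowest value possible with 3 per group). All values below are deposited log2 expression values, and a log2 fold change is the mean of the Nedd4 siRNA arrays minus the mean of the control arrays. "Passed" means an adjusted p under 0.05 from limma, adjusted over all 28440 probesets. Array medians lay between 6.28 and 6.35. Sox10, which marks neural crest, read between 10.93 and 11.19 in control cells and was lower after Nedd4 siRNA (log2 fold change −0.43, SE 0.098, adjusted p = 0.00864), but did not pass by the ANOVA named in the methods (adjusted p = 0.088). Of 12 neural crest markers 2 were higher and 5 lower (58.3% passed, beside 18.7% of all named genes). Their summed log2 level ranged from 103.94 to 104.43 in control and from 102.43 to 103.22 in knockdown cells. These sums hide opposed shifts, with log2 fold changes from −0.54 to 0.66 among neural crest and from −1.14 to 1.20 among Schwann cell markers. Of 11 smooth muscle and fibroblast markers 3 were higher and none lower (27.3% passed, sum 72.84 to 74.29 against 74.82 to 76.16). Of 6 Schwann cell markers 2 were higher and 2 lower (66.7% passed, 55.96 to 56.43 against 56.56 to 57.21). Of 7 neuronal markers 1 was higher (14.3% passed, 38.67 to 39.88 against 39.13 to 39.6). None of 8 blood cell markers (43.82 to 45.34 against 44.24 to 44.52) or 6 endothelial markers (30.89 to 31.99 against 31.66 to 32.02) passed with limma or ANOVA, and none had an unadjusted p under 0.05 from limma. The lowest value of any probeset was 3.96, so a value above 0 does not show that a marker is expressed. By mean signal no endothelial marker ranked above 21.2% of probesets and no blood cell marker above 43.9%. The part of these shifts in the results that follow was not tested, and in RNA of whole cultures fewer cells of a type and less RNA per cell cannot be told apart.

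Of the 44 genes, 10 were higher and 6 lower after Nedd4 knockdown and 28 did not pass. These 16 are 36.4% of the set, beside 18.7% of all named genes (9.62% higher and 9.13% lower). The set was chosen with earlier results of these data known, so its share is not independent of them and was not tested. Over all probesets 16.1% passed, and 25.3% had an unadjusted p under 0.05. The median log2 fold change of the set was 0.00, with a range from −0.85 for Sipa1 to 0.66 for Radil, and the median of all named genes was −0.02. The control and Nedd4 siRNA arrays did not overlap for 27 of the 44 genes (61.4%), against 31.7% of all named genes. Genes that passed in both directions were found in 4 of the 9 role groups, as the plot of fold changes by role shows. With the ANOVA of the methods 8 of the 44 genes passed (18.2%), beside 9.05% of all named genes. These 8, all among the 16, were Nras, Rala, Sipa1, Sipa1l1, Nf1, Rasa2, Rasal2 and Radil.

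**Figure D1:**
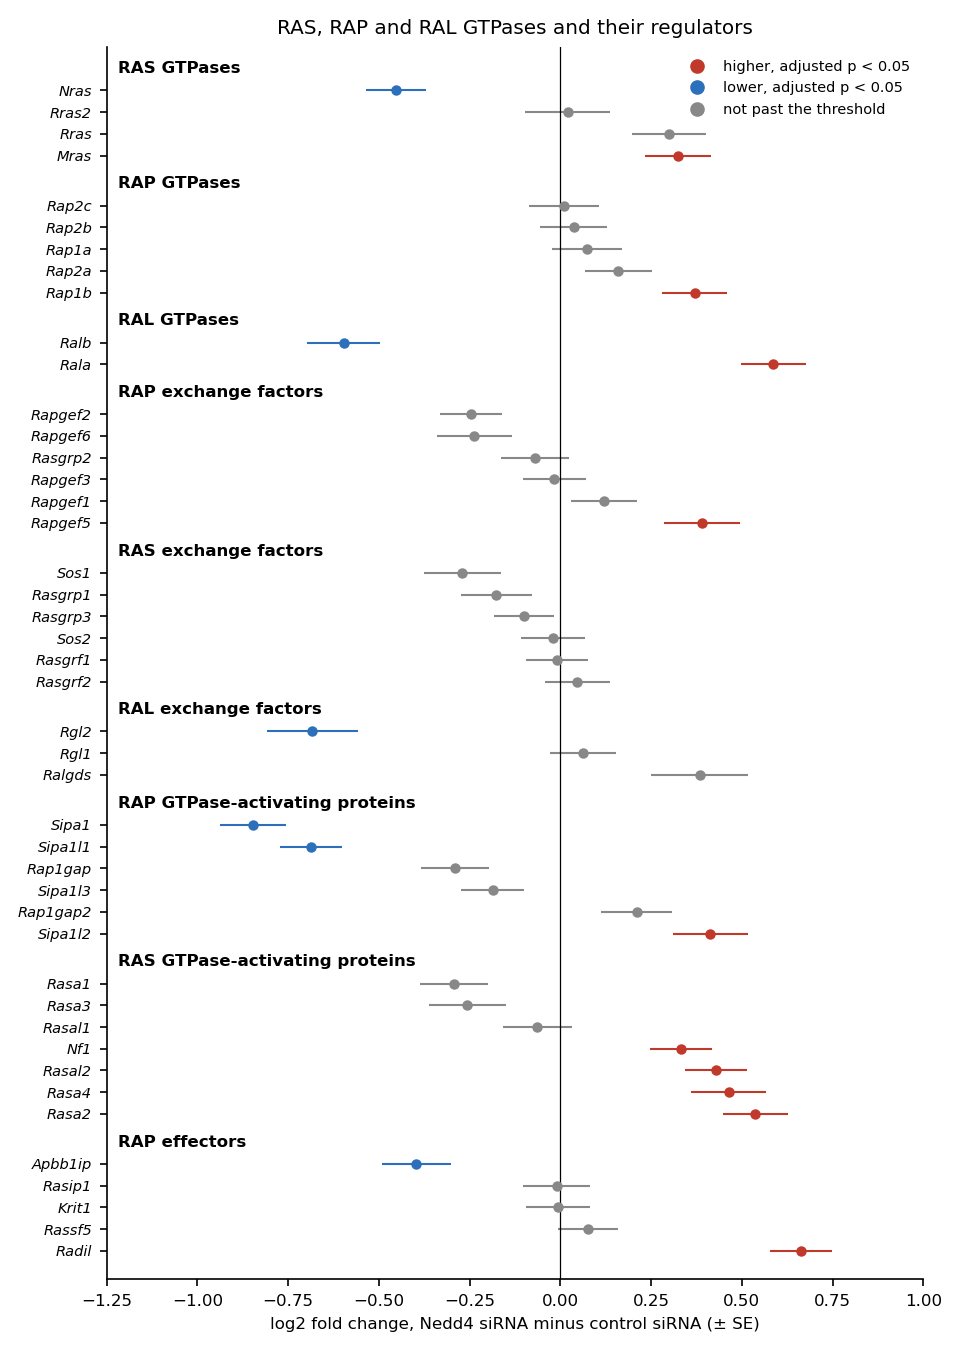
The 44 genes grouped by role, with the log2 fold change (Nedd4 siRNA minus control siRNA) on the horizontal axis as points and its standard error as bars. Red genes were higher and blue genes lower at an adjusted p under 0.05 from limma and grey genes did not pass, with Sipa1 at the lower end (−0.85) and Radil at the upper end (0.66).

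Among the RAS GTPases Nras fell, Mras was higher on 1 of its 2 probesets, and Rras and Rras2 did not pass. Nras, which encodes a RAS protein that activates the MAP kinase cascade (probeset 10494857), read 9.71, 9.75 and 9.77 in control cells and 9.30, 9.30 and 9.27 in knockdown cells. Every knockdown array lay below every control array, and the arrays of each siRNA were close together. The log2 fold change was −0.45 (SE 0.082, adjusted p = 0.00207), which is 1.37-fold lower. Rras, a RAS relative that acts on integrin adhesion, read 11.87, 11.85 and 12.18 in control and 12.27, 12.30 and 12.23 in knockdown cells. The groups of Rras did not overlap, but control replicate 3 lay close to the knockdown arrays, and the difference of 0.30 (SE 0.10) did not pass (adjusted p = 0.0694). Without that array it was 0.41 (SE 0.089, adjusted p = 0.0130). Rras did not pass in 13 of the 18 alternative analyses. Among these were ANOVA (adjusted p = 0.226) and the omission of any other array (limma adjusted p up to 0.195). Rras2 read 9.80, 9.93 and 10.29 against 10.04, 10.02 and 10.02. Its groups overlapped, and the 95% interval of the difference was −0.23 to 0.27.

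Mras, whose product works with the SHOC phosphatase complex upstream of RAF kinases, had a pair of probesets that moved in opposite directions. The one with the higher mean over all 6 arrays (10595981) read 9.26, 9.29 and 9.18 in control cells and 9.61, 9.44 and 9.65 in knockdown cells, higher by 0.32 (SE 0.091, adjusted p = 0.0287). The other (10595979) read 9.46, 9.38 and 9.32 against 9.20, 9.27 and 9.10, a difference of −0.20 (SE 0.089) that did not pass (adjusted p = 0.189). Neither probeset had overlapping groups, so the direction of Mras depends on the probeset read, and the mean of both was 0.06 (adjusted p = 0.729). The choice of probeset itself rested on the knockdown arrays, since the other had the higher mean in control cells (9.39 against 9.24) and the lower in knockdown cells (9.19 against 9.57). By the mean of the control arrays Mras would not be among the genes that passed. The call also did not pass by ANOVA (adjusted p = 0.0895) or without control replicate 1 (0.33, adjusted p = 0.0527), control replicate 3 (0.29, adjusted p = 0.0897), Nedd4 siRNA replicate 1 (0.30, adjusted p = 0.137) or Nedd4 siRNA replicate 3 (0.28, adjusted p = 0.119).

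Of the 5 RAP GTPases Rap1b alone passed (20%, beside 18.7% of all named genes). Rap1b, a regulator of integrins and cell junctions (probeset 10372716), read 10.83, 10.88 and 10.79 in control cells and 11.21, 11.10 and 11.30 in knockdown cells. All knockdown arrays were above all control arrays, and the log2 fold change was 0.37 (SE 0.089, adjusted p = 0.0120), or 1.29-fold higher. The call was lost with ANOVA (adjusted p = 0.0534) and without Nedd4 siRNA replicate 1 (0.37, adjusted p = 0.0607) or Nedd4 siRNA replicate 3 (0.32, adjusted p = 0.0622). Its close relative Rap1a read 10.72, 10.55 and 10.80 against 10.82, 10.65 and 10.82, with overlapping groups and a 95% interval of −0.14 to 0.28. Whether the response of Rap1b differed from that of Rap1a was not tested.

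The RAP2 proteins act on the cytoskeleton through kinases of the TNIK and MINK type, and RAP2A is a known substrate of NEDD4. Rap2a read 7.72, 7.93 and 7.79 in control cells and 8.01, 8.03 and 7.88 in knockdown cells. Rap2b read 8.96, 8.93 and 8.72 against 8.89, 8.90 and 8.93. Rap2c read 8.17, 8.45 and 8.41 against 8.40, 8.32 and 8.34. The groups overlapped for all 3 genes and none passed. The 95% intervals of the differences were −0.04 to 0.36 for Rap2a, −0.16 to 0.24 for Rap2b and −0.20 to 0.22 for Rap2c.

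Both RAL GTPases passed, in opposite directions. Rala, which drives exocyst-dependent membrane delivery (probeset 10407907), read 9.70, 9.62 and 9.75 in control cells and 10.37, 10.18 and 10.28 in knockdown cells. Its closest relative Ralb, known for roles in cell migration and survival (probeset 10357158), read 8.09, 8.28 and 8.01 against 7.47, 7.66 and 7.46. Neither gene had overlapping groups. Rala rose 1.50-fold (log2 fold change 0.59, SE 0.090, adjusted p = 0.000643) and Ralb fell 1.51-fold (−0.60, SE 0.10, adjusted p = 0.00125). Rala passed in every one of the 18 alternative analyses, and Ralb was lost with ANOVA alone (adjusted p = 0.0540).

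**Figure D2:**
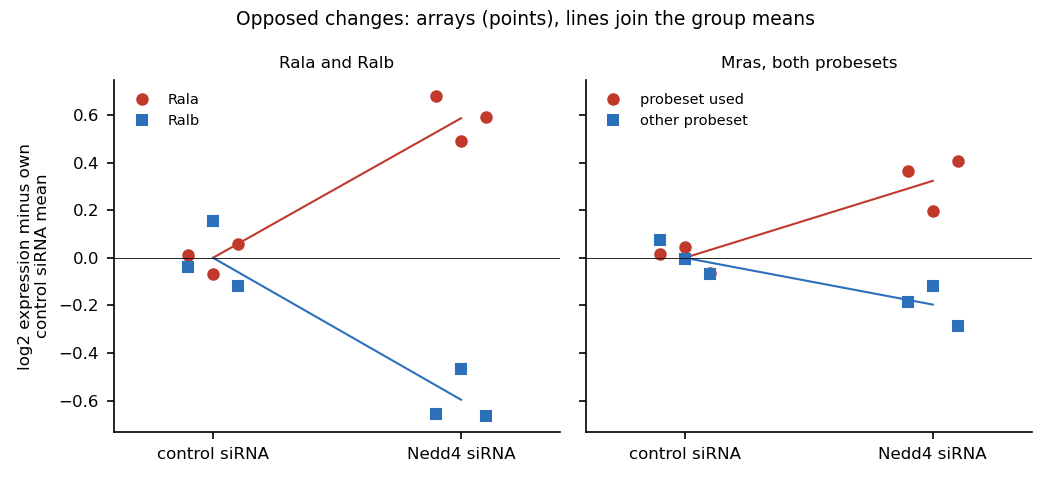
Log2 expression of each array minus the mean of the 3 control siRNA arrays of the same probeset (vertical axis) for Rala and Ralb and for both probesets of Mras. Points are arrays and lines join the means of the control siRNA and Nedd4 siRNA groups, which lie 0.59 apart for Rala, −0.60 for Ralb, 0.32 for the Mras probeset used and −0.20 for the other.

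The promoters of Rala and Ralb are shown because these relatives moved apart, and that of Sipa1 because its fall was the largest in the set. Each is 300 bases of mouse genome build GRCm38.p6 from RefSeq, from 250 bases before the transcription start to 50 after it, at chr13:17944168-17944467 for Rala, chr1:119504733-119505032 for Ralb and chr19:5663658-5663957 for Sipa1, all on the minus strand and written 5′ to 3′. Capitals mark matches on either strand to the GC box GGGCGG, the CCAAT box, the SOX core ACAAAG and the E-box CACGTG, and CCAAT on both strands overlaps in Sipa1.
Rala: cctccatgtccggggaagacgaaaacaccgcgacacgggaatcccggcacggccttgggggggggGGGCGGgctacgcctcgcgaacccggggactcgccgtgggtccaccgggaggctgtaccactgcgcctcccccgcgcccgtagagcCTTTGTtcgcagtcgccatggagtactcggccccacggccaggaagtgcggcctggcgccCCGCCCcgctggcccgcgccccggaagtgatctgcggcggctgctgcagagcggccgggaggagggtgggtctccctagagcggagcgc
Ralb: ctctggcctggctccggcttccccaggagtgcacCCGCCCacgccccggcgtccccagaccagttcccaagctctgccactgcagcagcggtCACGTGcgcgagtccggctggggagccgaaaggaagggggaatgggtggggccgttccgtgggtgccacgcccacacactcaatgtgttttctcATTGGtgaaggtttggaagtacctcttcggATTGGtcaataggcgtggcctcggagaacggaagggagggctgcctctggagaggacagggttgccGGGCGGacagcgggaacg
Sipa1: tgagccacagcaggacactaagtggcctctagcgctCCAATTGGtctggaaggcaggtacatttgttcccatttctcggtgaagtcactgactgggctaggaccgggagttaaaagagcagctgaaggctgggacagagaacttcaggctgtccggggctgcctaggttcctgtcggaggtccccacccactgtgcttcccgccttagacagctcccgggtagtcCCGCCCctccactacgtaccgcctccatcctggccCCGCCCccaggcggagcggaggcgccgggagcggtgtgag
All of the 3 held 2 GC boxes, Rala had 1 SOX core and no CCAAT box, Ralb had 2 CCAAT boxes and 1 E-box, and Sipa1 had 2 CCAAT matches. The GC content was 73.7%, 65.3% and 62.7%, against a median of 52.7% over 32851 promoters of the same length. Over all 32851 promoters the GC box was found in 35.7%, the CCAAT box in 37.4%, the SOX core in 18.7% and the E-box in 7.15%. Of the 63 promoters listed for 42 genes of the set, 40 held a GC box (63.5%), 19 a CCAAT box (30.2%), 10 a SOX core (15.9%) and 8 an E-box (12.7%). The AP-1 site TGACTCA was in none of them (5.20% of all promoters) and the cAMP response element TGACGTCA in 1 (1.79%). These matches describe the letters alone, with no test of binding or control.

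Of the 15 exchange factors, 1 was higher and 1 lower (13.3% passed, beside 18.7% of all named genes). Their median log2 fold change was −0.02. None of the 6 exchange factors for RAS passed with limma or with ANOVA, 1 of them (Sos1) had an unadjusted p under 0.05 from limma, and their median was −0.06. Sos1, which couples receptor tyrosine kinases to RAS through GRB2, read 8.92, 8.95 and 9.26 against 8.86, 8.69 and 8.77. Its groups did not overlap, control replicate 3 was the highest array, and the difference of −0.27 (95% interval −0.50 to −0.04) did not pass (adjusted p = 0.120). Without that array it was −0.16 (adjusted p = 0.377). Its relative Sos2 had a 95% interval of −0.21 to 0.17. The diacylglycerol-responsive Rasgrp1 and Rasgrp3 had differences of −0.18 and −0.10, and the calcium-responsive Rasgrf1 and Rasgrf2 of −0.01 and 0.05. Rasgrp1, Rasgrp3 and Rasgrf2 lay in the dimmest 25% of all probesets, as did Rapgef3, Rapgef5 and Rasgrp2.

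Among the 6 exchange factors for RAP, Rapgef5 alone passed (16.7%, beside 18.7% of all named genes). Rapgef5 (probeset 10399148) read 5.25, 5.08 and 5.03 in control cells and 5.58, 5.33 and 5.62 in knockdown cells. The groups did not overlap and the log2 fold change was 0.39 (SE 0.10, adjusted p = 0.0209), but only 17.2% of probesets had a lower mean signal. It did not pass with ANOVA (adjusted p = 0.149) or without control replicate 2 (0.37, adjusted p = 0.0605), control replicate 3 (0.35, adjusted p = 0.0820), Nedd4 siRNA replicate 1 (0.36, adjusted p = 0.108) or Nedd4 siRNA replicate 3 (0.34, adjusted p = 0.0897). Rapgef1, the exchange factor that CRK adaptors bring to receptors and adhesions, had a difference of 0.12 (95% interval −0.08 to 0.32) and a further probeset at −0.10, neither of which passed. Rapgef2, which acts at cell junctions, read 9.57, 9.62 and 9.50 against 9.33, 9.35 and 9.27, with no overlap and a difference of −0.25 (SE 0.085, adjusted p = 0.0714). Its relative Rapgef6 had −0.24 (adjusted p = 0.168), with −0.34 (adjusted p = 0.0390) without control replicate 1 and −0.16 (adjusted p = 0.447) without control replicate 3. The cAMP-activated Rapgef3 and the calcium-responsive Rasgrp2 had −0.02 and −0.07.

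Of the 3 exchange factors for RAL, Rgl2 was lower and the others did not pass (33.3% passed, beside 18.7% of all named genes). Rgl2, which binds active RAS and passes the signal to RAL (probeset 10444079), read 8.16, 8.20 and 7.77 in control cells and 7.24, 7.54 and 7.30 in knockdown cells. Every knockdown array lay below every control array, with control replicate 3 the lowest of its group. The log2 fold change was −0.68 (SE 0.12, adjusted p = 0.00217), or 1.61-fold lower, and did not pass with ANOVA (adjusted p = 0.105). Ralgds, the founding member of this family, read 7.97, 8.02 and 7.45 against 8.22, 8.23 and 8.14. Its groups did not overlap, the same control array was the lowest, and the difference of 0.38 (SE 0.13) did not pass (adjusted p = 0.0749), with 0.49 (adjusted p = 0.0370) without control replicate 2 and 0.20 (adjusted p = 0.216) without control replicate 3. Rgl1 had a 95% interval of −0.14 to 0.26.

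Among the 13 GTPase-activating proteins 5 were higher and 2 lower (53.8% passed, beside 18.7% of all named genes). Their median log2 fold change was −0.06. All 13 lay above the dimmest 25% of probesets, where 24.6% of all named genes passed. The 6 that act on RAP had a median of −0.24, with 1 higher and 2 lower (3 of 6 passed, beside 18.7% of all named genes), and none of the 6 had overlapping groups (among all named genes 31.7% did not overlap). Sipa1, a RAP inactivator that limits adhesion (probeset 10465132), read 7.76, 7.87 and 7.92 in control cells and 7.02, 7.08 and 6.91 in knockdown cells, which is 1.80-fold lower (log2 fold change −0.85, SE 0.090, adjusted p = 4.9e-05). Its relative Sipa1l1, which in neurons shapes dendritic spines through RAP and actin (probeset 10397002), read 11.27, 11.31 and 11.23 against 10.52, 10.67 and 10.56, which is 1.61-fold lower (log2 fold change −0.69, SE 0.086, adjusted p = 0.00016). Both fell by more than the spread between arrays and passed in every one of the 18 alternative analyses.

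Another gene of this family moved the other way. Sipa1l2 (probeset 10582719) read 6.39, 6.64 and 6.48 in control cells and 7.07, 6.91 and 6.77 in knockdown cells, higher by 0.41 (SE 0.10, adjusted p = 0.0156). The groups did not overlap, but the call was lost with ANOVA (adjusted p = 0.135) and without control replicate 1 (0.36, adjusted p = 0.0560), control replicate 3 (0.40, adjusted p = 0.0521) or Nedd4 siRNA replicate 1 (0.34, adjusted p = 0.104). Sipa1l3 had −0.19 (adjusted p = 0.201), Rap1gap −0.29 (SE 0.093, adjusted p = 0.0531) and Rap1gap2 0.21 (adjusted p = 0.206), of which Rap1gap lay just short of the threshold.

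Of the 7 GTPase-activating proteins for RAS, 4 were higher and none lower (57.1% passed), with a median log2 fold change of 0.33. Of all named genes 18.7% passed, and of those above the dimmest 25% of probesets, where all 7 lay, 24.6%. Nf1 (probeset 10379262) read 9.73, 9.74 and 9.77 in control cells and 10.15, 10.00 and 10.09 in knockdown cells. Rasa2, of the GAP family that phosphoinositides recruit to membranes (probeset 10595805), read 7.03, 7.12 and 7.23 against 7.72, 7.60 and 7.67. Rasa4, a calcium-triggered member of the same family (probeset 10526459), read 6.76, 7.04 and 6.79 against 7.34, 7.44 and 7.20. In all 3 genes each knockdown array was above each control array. Rasal2, related to the synaptic RAS inactivator SYNGAP (probeset 10359235), read 9.31, 9.37 and 9.31 against 9.84, 9.74 and 9.70, also without overlap. The log2 fold changes were 0.33 for Nf1 (SE 0.085, adjusted p = 0.0170, 1.26-fold), 0.54 for Rasa2 (SE 0.090, adjusted p = 0.00121, 1.45-fold), 0.46 for Rasa4 (SE 0.10, adjusted p = 0.00786, 1.38-fold) and 0.43 for Rasal2 (SE 0.085, adjusted p = 0.00379, 1.35-fold). Nf1 lost its call without Nedd4 siRNA replicate 1 (0.30, adjusted p = 0.112) or Nedd4 siRNA replicate 3 (0.33, adjusted p = 0.0583), and Rasa4 with ANOVA (adjusted p = 0.106).

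The other 3 genes of this group did not pass. Rasa1, which binds activated growth factor receptors, read 9.66, 9.68 and 9.84 in control cells and 9.52, 9.32 and 9.46 in knockdown cells. The groups did not overlap, in the direction opposite to the 4 genes above, and the difference was −0.29 (SE 0.094, adjusted p = 0.0529). It passed as lower in 7 of the 18 alternative analyses, among them quantile normalization (adjusted p = 0.0341). Rasa3, which acts on both RAS and RAP, had −0.26 (95% interval −0.49 to −0.03, adjusted p = 0.142) and Rasal1 −0.06 (95% interval −0.27 to 0.14).

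**Figure D3:**
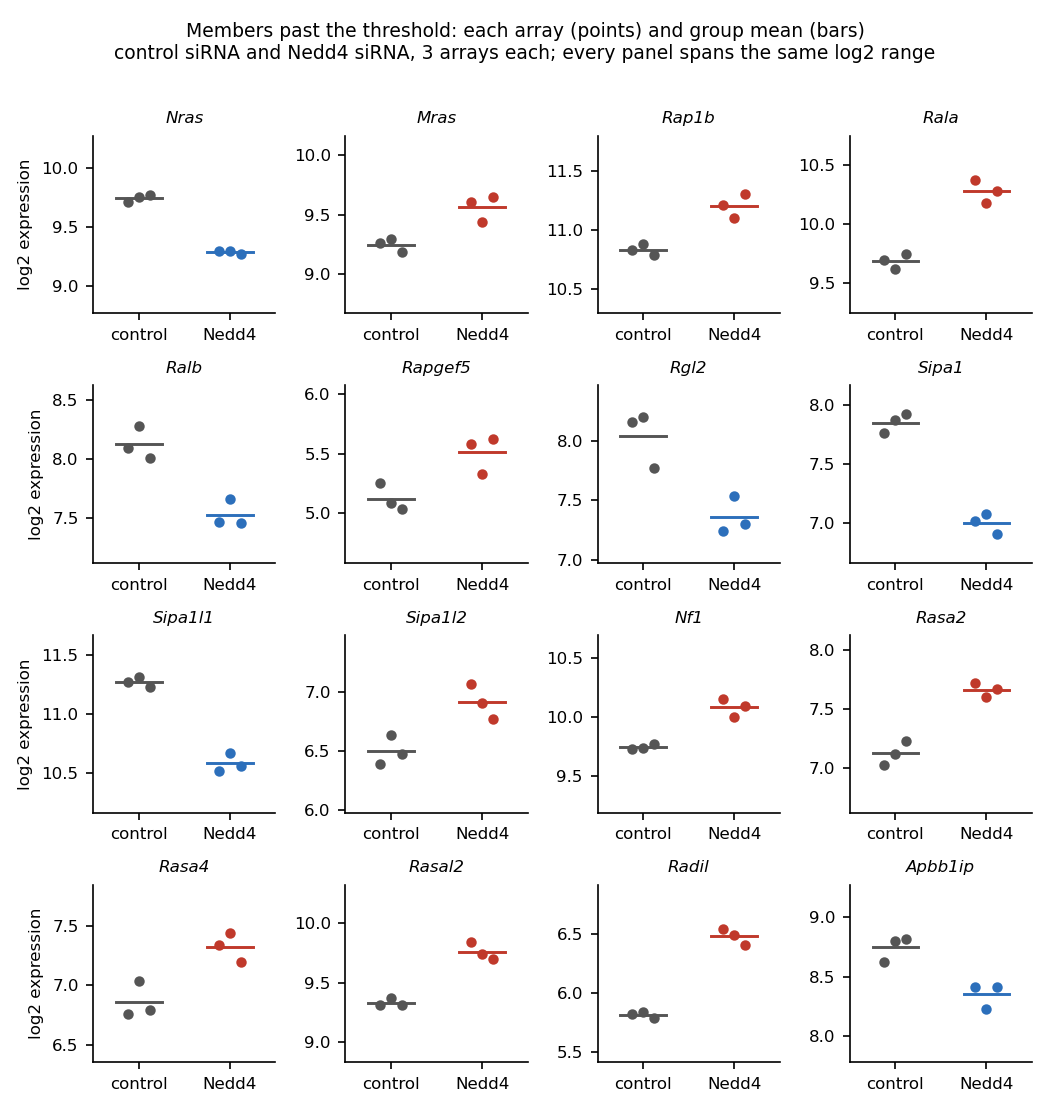
Log2 expression (vertical axes, all spanning the same log2 range) of the 16 genes that passed, with 3 control siRNA and 3 Nedd4 siRNA arrays as points and group means as bars. The groups of arrays do not overlap in any panel, which the selection by adjusted p favours, so it adds no support. Among all named genes 31.7% did not overlap. The mean distances range from 0.32 for Mras to 0.85 for Sipa1 in size.

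Of the 5 RAP effectors, 1 was higher and 1 lower (40% passed, beside 18.7% of all named genes). Radil, a RAP effector needed for neural crest migration in zebrafish (probeset 10535312), read 5.82, 5.84 and 5.79 in control cells and 6.54, 6.49 and 6.41 in knockdown cells. The groups were far apart compared with their spread, and the log2 fold change was 0.66 (SE 0.084, adjusted p = 0.000177), or 1.58-fold higher. Apbb1ip, which encodes RIAM, the adaptor that links RAP to talin and integrin activation (probeset 10469695), read 8.62, 8.80 and 8.82 against 8.41, 8.23 and 8.41. All knockdown arrays were lower, and the 1.32-fold difference passed (log2 fold change −0.40, SE 0.095, adjusted p = 0.0120). The fall of Apbb1ip was lost with ANOVA (adjusted p = 0.0874) and without Nedd4 siRNA replicate 2 (−0.34, adjusted p = 0.0521). Rasip1 (95% interval −0.21 to 0.19), Krit1 (−0.20 to 0.19) and Rassf5 (−0.10 to 0.26), which act at endothelial junctions and in lymphocyte adhesion, did not pass.

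Set apart by role, 2 of 15 activators (13.3%) and 7 of 13 inactivators (53.8%) passed, beside 18.7% of all named genes. By the ANOVA of the methods it was none of the activators and 5 of the inactivators (38.5%), beside 9.05% of all named genes. The roles differed in signal, since all 6 genes of the set in the dimmest 25% of probesets were activators. Above that limit 1 of 9 activators (11.1%) and 7 of 13 inactivators (53.8%) passed, beside 24.6% of all named genes above it. The difference between the roles was not tested. By target, 5 genes of the RAS branch were higher and 1 lower of 17, 4 higher and 3 lower of 22 in the RAP branch, and 1 higher and 2 lower of 5 in the RAL branch.

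**Figure D4:**
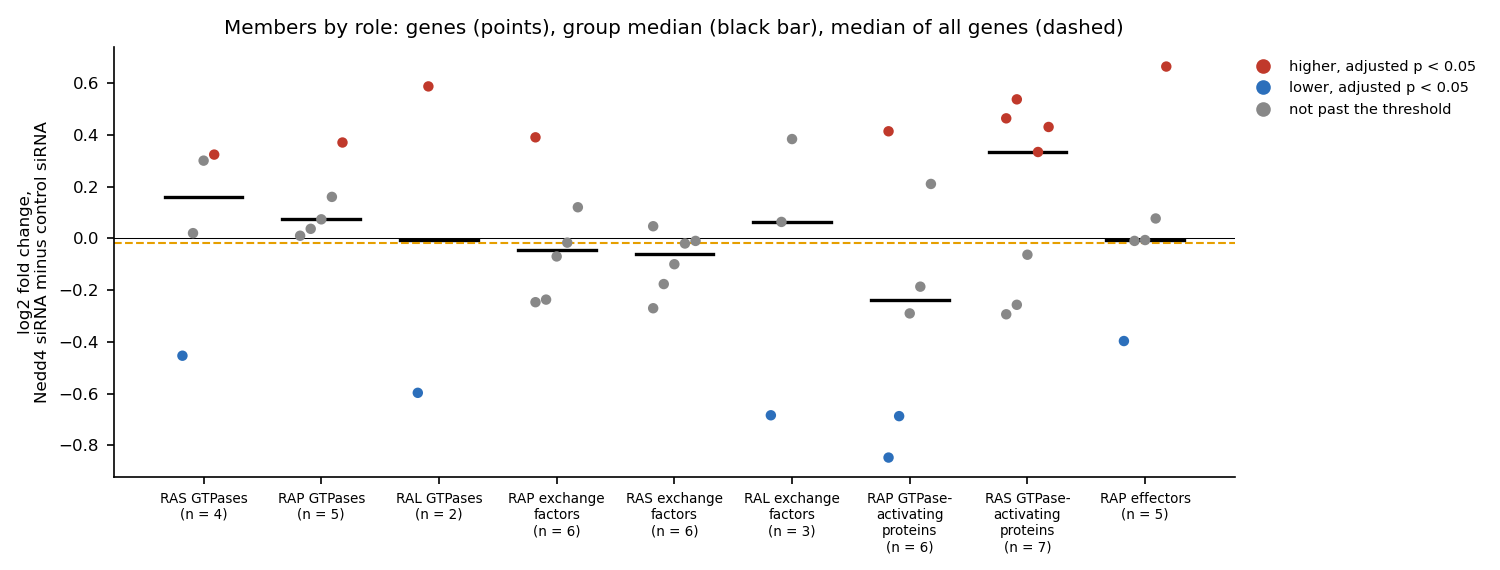
Log2 fold change of each gene (points, vertical axis) in the 9 role groups, with the group median as a black bar and the median of all named genes (−0.02) as a dashed line. The inactivators of RAS have the highest median (0.33) and the inactivators of RAP the lowest (−0.24), while the exchange factors for RAS and RAP lie near 0 with medians of −0.06 and −0.04.

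Further genes of the same pathways were taken from 6 lists that share no gene with the set, 98 measured genes of 105 listed. In these lists 17 were higher and 8 lower (25.5%, beside 18.7% of all named genes). The lists too were chosen with earlier results of these data known. Among 21 further RAS-family GTPases 2 were higher and 1 lower (14.3%, which is below the share of all named genes). Rasl11a, an atypical RAS-like protein, read 7.22, 7.18 and 7.24 in control cells and 8.40, 8.37 and 8.40 in knockdown cells, 2.26-fold higher (log2 fold change 1.18, SE 0.082, adjusted p = 2.6e-06) and so by more than any gene of the set. Rheb, which activates mTOR, rose by 0.48 (SE 0.088, adjusted p = 0.0024), and Diras1 fell by 0.40 (SE 0.093, adjusted p = 0.0102), the latter not past the threshold without Nedd4 siRNA replicate 1 (adjusted p = 0.0804). Of 8 further exchange factors (12.5% passed), Rgl3, another one for RAL, was lower (−0.38, SE 0.095, adjusted p = 0.0154). Of 6 further GTPase-activating proteins (16.7% passed), Garnl3, which carries a RAP GAP domain, was higher (0.35, SE 0.083, adjusted p = 0.0120). Neither Rgl3 nor Garnl3 passed without Nedd4 siRNA replicate 1 (adjusted p = 0.0761 and 0.0648). Rgl3 also did not pass without control replicate 2 (adjusted p = 0.0561) or Nedd4 siRNA replicate 3 (adjusted p = 0.0616).

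Among 31 effectors and scaffolds of RAS and RAL 8 were higher and 2 lower (32.3%, beside 18.7% of all named genes). Reps2, a partner of the RAL effector RALBP in endocytosis, read 5.59, 5.44 and 5.50 in control cells and 6.94, 6.75 and 6.65 in knockdown cells, 2.41-fold higher (log2 fold change 1.27, SE 0.098, adjusted p = 5.1e-06). Rassf4, a RAS-association domain protein, read 6.75, 6.85 and 6.87 against 5.61, 5.85 and 5.77, 2.11-fold lower (−1.08, SE 0.093, adjusted p = 1.1e-05). Both were well separated between the siRNAs. The exocyst, the vesicle tethering complex that RAL proteins bind, had 9 measured subunit genes, of which 4 were higher and 1 lower (55.6% passed, beside 18.7% of all named genes). All 9 lay above the dimmest 25% of probesets, where 24.6% of all named genes passed. Exoc3 was higher by the largest step (0.82, SE 0.099, adjusted p = 0.000128), and, named after their values were seen, Exoc6 (0.33, adjusted p = 0.0167), Exoc5 (0.31, adjusted p = 0.0316) and Exoc2 (0.30, adjusted p = 0.0244) were higher and Exoc6b (−0.42, adjusted p = 0.00818) lower. Exoc6 (adjusted p = 0.101) and Exoc2 (adjusted p = 0.0884) did not pass without Nedd4 siRNA replicate 1, nor Exoc5 (adjusted p = 0.143) without Nedd4 siRNA replicate 3. For each of them this was the omission with the highest adjusted p.

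The 15 genes of membrane processing and turnover of these GTPases held 3 that were higher and 1 that was lower. In this list 26.7% passed, beside 18.7% of all named genes. Lztr1, a ubiquitin ligase adaptor that directs RAS proteins to degradation, was higher by 0.66 (SE 0.11, adjusted p = 0.0011). Abhd17b, which removes palmitate from NRAS, was higher by 0.44 (SE 0.085, adjusted p = 0.0032). Pggt1b, a subunit of the enzyme that geranylgeranylates RAP and RAL, was higher by 0.47 (SE 0.13, adjusted p = 0.0252), and Zdhhc9, which adds palmitate to RAS and was named after its value was seen, had a difference of −0.34 (adjusted p = 0.0331). Pggt1b did not pass without Nedd4 siRNA replicate 2 (adjusted p = 0.0958), Nedd4 siRNA replicate 1 (adjusted p = 0.0791) or control replicate 1 (adjusted p = 0.0913). Zdhhc9 did not pass without Nedd4 siRNA replicate 1 (adjusted p = 0.13), the omission with its highest adjusted p. Among 17 receptor adaptors 3 were higher and 3 lower (35.3%). Shc4 (−0.60, SE 0.10, adjusted p = 0.0012) and Crkl, which brings Rapgef1 to receptors (−0.44, SE 0.087, adjusted p = 0.0035), were lower and the docking protein gene Gab2 was higher (0.54, SE 0.094, adjusted p = 0.00161). By the ANOVA of the methods 14 of the 98 genes passed (14.3%), beside 9.05% of all named genes. Of those named here Diras1, Rgl3, Exoc5, Exoc6b, Lztr1, Pggt1b, Zdhhc9 and Shc4 did not (ANOVA adjusted p from 0.0524 for Shc4 to 0.235 for Pggt1b).

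**Figure D5:**
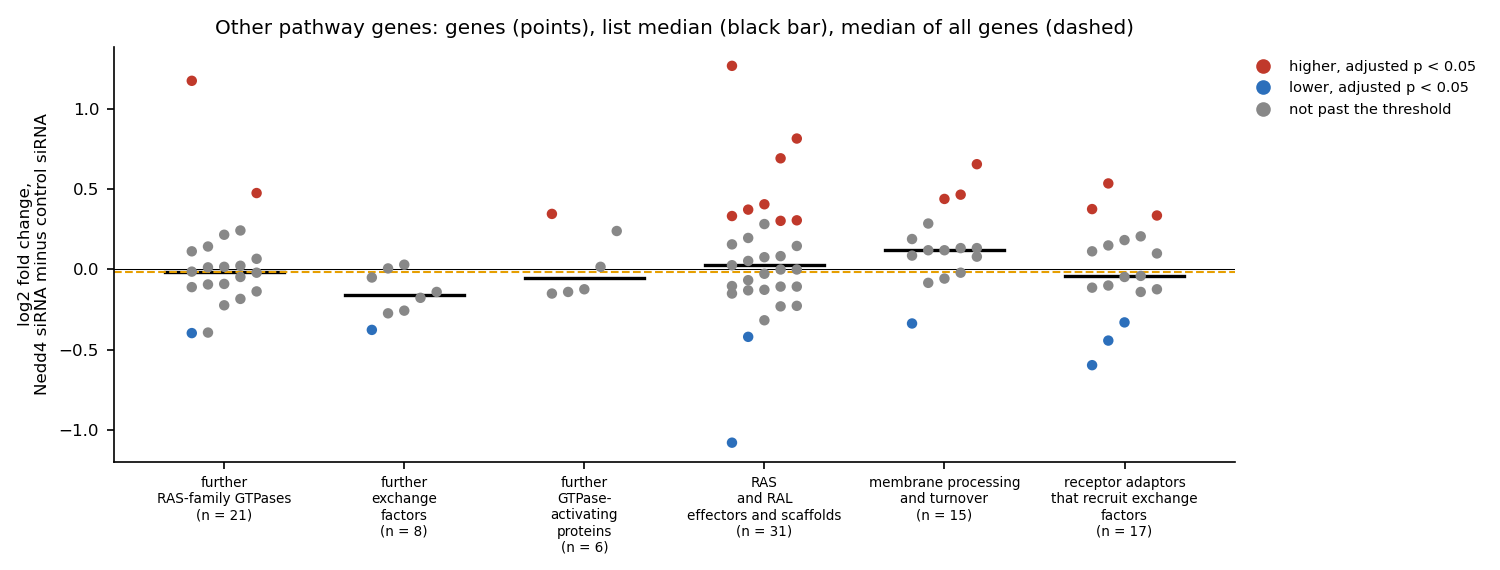
Log2 fold change (vertical axis) of the 98 measured genes of the 6 further lists, 1 point a gene, with list medians as black bars and the median of all named genes (−0.02) as a dashed line. Reps2 (1.27) and Rasl11a (1.18) stand highest and Rassf4 (−1.08) lowest, while the list medians lie between −0.16 and 0.12.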

How the data were processed

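RNA of NCU10K cells was profiled on 6 Affymetrix Mouse Gene arrays, 3 per siRNA, from 300 ng of total RNA each. Scans were imported by the authors into Partek software (6.5, per the submitters' notes), corrected for background (RMA) and for probe GC content, and summarized by the probe mean. They deposited log2 values of 28440 probesets, to 2 decimals. Normalization between arrays is not given in the sources used here, and none was added. The methods take RNA from 1 well of a plate, the submitters' design notes from larger dishes. A single gene symbol was given for 21780 probesets, several for 1618 and none for 5042. Only those with 1 symbol named a gene.

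The comparison used limma 3.58.1 (R 4.3.3, lmFit and eBayes without covariates). P-values of all probesets were adjusted together (Benjamini-Hochberg), with a threshold of 0.05. In simulated data, 33% of 100 probesets shifted by 0.5 in log2 passed, and 88% of 100 shifted by 1. Far fewer probesets changed there than passed in the arrays (4579), so these shares do not carry over directly. The median residual SD was 0.117, and 3 arrays a group limit the precision. Alternatives were the methods' ANOVA with the siRNA as factor, a trended and robust eBayes, array weights, a replicate block, quantile normalization or median centring of the arrays, filters that removed the dimmest 25% or 50% of probesets, testing of probesets with 1 symbol alone, averaging of the probesets of a gene, stricter thresholds (adjusted p under 0.01, or an added minimum of 0.5 in log2 fold change) and omission of each array in turn. The 46 genes and the further lists were chosen with earlier results of these data known. Each gene of the set was named. From each further list up to 3 that passed were named by smallest p, and Sox10 among the markers. Python 3.11.15, pandas 2.3.3, SciPy 1.17.1 and Matplotlib 3.10.9 gave counts, the permutation test and figures.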

Additional observations from a re-analysis of the deposited data

How the results depend on the processing

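The 18 alternatives gave 1060 values for 60 named genes. Of these 943 kept their direction and side of the threshold, 66 kept the direction but no longer passed, 23 kept it and newly passed, and 28 changed direction, all in 9 genes with differences near 0 that did not pass in any of the analyses. Of the 16 genes of the set that passed, 10 also passed without each array in turn, and Rala, Sipa1, Sipa1l1, Rasa2 and Radil passed in each alternative in which they were tested. By ANOVA 5 genes of the set were higher and 3 lower, 0 activators were higher and 0 lower, 3 inactivators were higher and 2134 probesets passed, against 4579 with limma. An adjusted p under 0.01 left 5 genes of the set higher, 0 activators higher, 3 inactivators higher and 2881 probesets, and a log2 fold change of at least 0.5 left 3 genes higher, 0 activators higher, 1 inactivator higher and 2191 probesets. Array weights, the replicate block and the mean of a gene's probesets each gave 2 activators higher. Quantile normalization gave 2 activators lower. Without the dimmest 25% of probesets 0 activators were higher and 4 inactivators lower, and without the dimmest 50% 0 activators were higher and 2 lower. Only probesets with 1 symbol, or the mean of a gene's probesets, gave 4 inactivators lower. The causes were not tested, beyond that fewer probesets enter the filtered tests.

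Leaving out 1 array at a time gave 5 to 10 genes of the set higher, with 5 without Nedd4 siRNA replicate 1 and 6 without Nedd4 siRNA replicate 3. Activators ranged from 0 to 1 higher (0 without control replicate 3 or Nedd4 siRNA replicate 1 or 3) and from 1 to 2 lower (2 without control replicate 1), with a median from −0.065 without control replicate 3 to −0.0067 without control replicate 1. Inactivators ranged from 3 to 5 higher (3 without Nedd4 siRNA replicate 1), with a median from −0.12 without control replicate 3 to 0.01 without control replicate 1. Probesets past the threshold ranged from 2962 without Nedd4 siRNA replicate 1 to 4312. The deviations of same-numbered arrays had correlations of −0.01, 0.47 and −0.01. Correlations of differently numbered arrays ranged from −0.43 to 0.42, the latter for control replicate 1 with Nedd4 siRNA replicate 3. Control replicate 3 with Nedd4 siRNA replicate 1 had 0.11. Deviations from a mean of 3 arrays constrain each other, so these values cannot decide whether the replicate numbers pair the arrays. Whether control and Nedd4 siRNA arrays share experiments under other replicate numbers was not tested. With the number as a replicate block 4962 probesets passed, with 11 genes of the set higher and 7 lower. Of the 15 activators 6 lie in the dimmest 25% of probesets, and whether dim signal bore on their calls was not tested.

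The changes of direction were these log2 fold changes. With array weights Sos2 had 0.018, Rasip1 0.058 and Krit1 0.0047. With quantile normalization Rapgef3 had 0.0067, Rasgrf1 0.024 and Rasip1 0.019. With median centring Rapgef3 had 0.0067, Sos2 0.0033, Rasgrf1 0.013, Rasip1 0.013 and Krit1 0.017. Without 1 array at a time the values ranged from −0.083 to 0.16 for Rras2, −0.038 to 0.082 for Rap2b, −0.077 to 0.063 for Rap2c, −0.065 to 0.01 for Rapgef3, −0.06 to 0.015 for Sos2, −0.04 to 0.015 for Rasgrf1, −0.12 to 0.01 for Rasal1, −0.068 to 0.057 for Rasip1 and −0.047 to 0.048 for Krit1.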
